A study of Rattus norvegicus with 56 samples.

Results

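The effect of LPS on hypothalamic gene expression was measured in rats that had been pretreated with celecoxib, on 10 of the 56 arrays of the series. These are the arrays whose labels give celecoxib injection as the procedure, 5 with LPS as the injection (CEL LPS, arrays 21 to 25) and 5 with NaCl (CEL NaCl, arrays 26 to 30). All 10 came from male Wistar rats, 3 months old and 300 ± 25 g, that had received celecoxib s.c. for 10 days. On day 11 the CEL LPS rats were given 10 µg LPS i.p. in 100 µl of 0.9% NaCl and the CEL NaCl rats the same volume of saline. The medial hypothalamus with the paraventricular nucleus was dissected 120 min later. Both groups had been pretreated with the drug, so their difference is that of LPS in celecoxib-pretreated rats. The dose of celecoxib is stated neither in the labels nor in the methods. The comparison groups received saline (NaCl, 4 LPS and 3 NaCl arrays), SC-560 (5 and 5) or indometacin (INDOM, 3 and 5) on the same schedule. Nothing in the labels names litters or batches of rats. The CEL LPS arrays are all numbered before the CEL NaCl arrays, so an effect of array order cannot be told apart from that of LPS. The p-values measure the spread between arrays.

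LPS, a wall component of Gram-negative bacteria, is bound by Toll-like receptor complexes, which signal through NF-kB to cytokine, chemokine and adhesion genes and through interferon regulatory factors to interferons and the antiviral genes that these induce. Vessel and perivascular cells of the brain are among the first to respond to a peripheral injection. They induce cyclooxygenase-2, encoded by Ptgs2, whose prostaglandin E2 acts on the hypothalamus to raise temperature and to drive the release of corticotropin-releasing hormone. Celecoxib is a selective inhibitor of the cyclooxygenase-2 enzyme, SC-560 one of cyclooxygenase-1, and indometacin inhibits both. The inhibitors block the enzyme, and an array reads only the transcripts.

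The arrays carry 1 linear intensity per transcript cluster, that is, per set of probes of 1 transcribed region, for 36685 clusters. All values below are log2 of that intensity, on which the median cluster lies at 4.08, and a difference is CEL LPS minus CEL NaCl, so that 1 unit is a doubling. The arrays of both groups correlated pairwise between 0.946 and 0.973. Defining genes of the paraventricular and medial hypothalamus were present in both groups, with Oxt at a mean of 10.19 in CEL LPS and 9.95 in CEL NaCl, Avp at 10.00 and 9.63, and the transcription factor Nkx2-1 at 6.05 and 5.92. A bulk sample cannot tell fewer cells of a type from less RNA per cell.

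At 120 min after LPS the feedback genes Zfp36 and Ier3, the adhesion genes Vcam1 and Icam1, the chemokine gene Cxcl1, Ptgs2 and Ch25h read higher in all 5 CEL LPS arrays than in any CEL NaCl array, with differences of 1.17 to 2.03. All 29 measured interferon response genes had a difference above 0, as did 44.7% of all genes with a symbol. None of the 36685 clusters passed the adjustment in the fit over the 35 arrays of the 8 drug groups (limma, 0 higher and 0 lower at an adjusted p under 0.05). The smallest adjusted p, 0.0835, was shared by 7 clusters, and the 4 of these with a gene symbol were Zfp36, Vcam1, Icam1 and Ier3, all higher in CEL LPS. At an unadjusted p under 0.05, 1059 clusters were higher (2.89%) and 983 lower (2.68%), and 174 (0.474%) were higher and 165 (0.45%) lower without overlap between the groups. When only the 10 arrays of both CEL groups entered the fit, 9 clusters passed and all 9 rose: Ptgs2 (adjusted p = 0.00818), Zfp36 (0.014), Vcam1, Icam1, Cxcl1 and Ch25h (each 0.0219), Ier3 (0.0274) and 2 clusters without a symbol. The calls of this smaller fit depended on single arrays: 23 clusters passed without CEL LPS array 21 and 0 without CEL LPS array 25. Ptgs2 passed in 9 of the 10 fits that left out 1 array and Zfp36 in 6 of 10. Icam1, Ier3 and Ch25h passed in only 2 of these 10 fits each, and Vcam1 and Cxcl1 in 1 each. In the account that follows, values of genes that did not pass describe these arrays only, with the SE or adjusted p beside many of them.

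The promoters of 5 of the higher genes are shown because they carry the letter pattern of an NF-kB site or of an interferon-stimulated response element, the elements through which the pathways above act. They are the 250 bases before the RefSeq transcription start in the rat genome build GRCr8, 5′ to 3′ on the strand of the gene. Capitals mark the matches, on either strand, to GGG and TTCC with any 3 bases between them, here called kB, and to TTTC and TTTC with any 2 bases between them, here called ISRE.
Cxcl10, chr14:15988816-15989065, plus strand: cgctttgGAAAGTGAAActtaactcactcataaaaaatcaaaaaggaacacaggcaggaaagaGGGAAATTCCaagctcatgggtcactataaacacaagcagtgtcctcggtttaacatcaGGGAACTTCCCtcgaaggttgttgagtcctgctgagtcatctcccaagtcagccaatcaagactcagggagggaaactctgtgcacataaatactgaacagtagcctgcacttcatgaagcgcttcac
Gbp5, chr2:233910749-233910998, plus strand: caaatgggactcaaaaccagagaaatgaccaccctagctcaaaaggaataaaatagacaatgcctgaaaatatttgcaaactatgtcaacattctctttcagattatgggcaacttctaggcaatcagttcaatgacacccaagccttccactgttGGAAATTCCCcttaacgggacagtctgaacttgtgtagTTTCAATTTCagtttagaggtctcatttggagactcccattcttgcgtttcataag
Ifit3, chr1:241527076-241527325, plus strand: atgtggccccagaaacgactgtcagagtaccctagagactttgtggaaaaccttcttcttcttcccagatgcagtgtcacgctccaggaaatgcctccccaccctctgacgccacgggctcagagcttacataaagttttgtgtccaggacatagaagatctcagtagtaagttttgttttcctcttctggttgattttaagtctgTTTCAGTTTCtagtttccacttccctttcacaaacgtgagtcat
Vcam1, chr2:206742784-206743033, minus strand: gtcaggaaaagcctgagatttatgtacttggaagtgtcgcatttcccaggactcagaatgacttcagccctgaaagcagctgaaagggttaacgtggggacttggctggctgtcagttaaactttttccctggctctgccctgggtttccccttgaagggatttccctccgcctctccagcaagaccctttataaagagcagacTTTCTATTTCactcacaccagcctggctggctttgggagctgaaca
Nfkbia, chr6:78597073-78597322, minus strand: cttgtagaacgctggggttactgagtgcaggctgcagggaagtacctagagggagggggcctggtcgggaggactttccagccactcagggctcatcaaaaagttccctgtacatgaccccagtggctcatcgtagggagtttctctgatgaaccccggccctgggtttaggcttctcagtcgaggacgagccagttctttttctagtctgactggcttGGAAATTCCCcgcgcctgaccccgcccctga
Over 33469 RefSeq promoters of this length, 4.53% held a kB match and 3.41% an ISRE match. RefSeq promoters were matched for 11 of 16 higher genes looked up, chosen with their values known. The 16 were the 15 higher genes with the smallest p and Nfkbia, a known NF-kB target that was added by name. Of the 11, 3 held a kB match (Cxcl10, Gbp5 and the added Nfkbia) and 5 an ISRE match (Cxcl10, Gbp5, Ifit3, Vcam1 and Casp1). In Cxcl10, 2 kB matches overlap and are shown as 1 run of capitals. Zfp36, Icam1, Ch25h, Ptgs2 and Depp1 held neither pattern of letters in this window. Only exact matches were counted. Stretches that depart from the kB pattern by a single letter, such as gggatttccc in Vcam1 and tggaaattcc in Icam1, are not marked. The counts are of these letters and not of all NF-kB sites.

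Ptgs2, the inducible cyclooxygenase and the transcript of the enzyme that celecoxib inhibits, was among the most clearly separated genes. Its level was 5.93, 5.95, 6.14, 5.91 and 6.09 in CEL LPS arrays 21 to 25 and 4.83, 4.64, 4.79, 4.76 and 4.91 in CEL NaCl arrays 26 to 30. The groups did not overlap, and each was narrow beside the gap between them. The means were 6.00 ± 0.10 and 4.79 ± 0.10 (SD, n = 5 each), a difference of 1.22 (SE 0.29) or 2.32-fold, with an exact two-sided permutation p of 0.00794, the smallest that 252 splits of 10 arrays can give. The adjusted p was 0.348 in the fit over 35 arrays and 0.00818 over the 10 arrays, where the SE was 0.11. Every exact permutation test below has the same smallest p. Ptgs1, which encodes the constitutive cyclooxygenase, stood at 3.94 to 4.66 in CEL LPS and 4.19 to 4.74 in CEL NaCl (difference −0.05, SE 0.19, adjusted p = 0.981).

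Of 28 measured genes of the prostaglandin pathway the median difference was −0.01, with 2 higher and 2 lower at an unadjusted p under 0.05, where 2.71% of 14557 genes with a symbol were higher and 3.3% lower. Besides Ptgs2 the higher one was the prostaglandin E receptor Ptger4, at 4.10 to 4.52 in CEL LPS and 3.71 to 4.21 in CEL NaCl, a difference of 0.35 (SE 0.16). The other prostaglandin E receptor in the pair of opposite sign, Ptger3, stood at 3.02 to 4.28 against 3.66 to 4.96 (difference −0.81, SE 0.34), with overlapping groups and values near the median of all clusters, 4.08. The secretory phospholipase Pla2g5 was lower by a smaller margin, 3.82 to 4.27 against 4.31 to 4.57 (difference −0.36, SE 0.16), without overlap, as were 0.708% of all genes. None of the 3 passed the adjustment (adjusted p = 0.874 to 0.884). Ptgds, the prostaglandin D synthase of the meninges and choroid plexus, ranged widely in both groups, from 8.97 to 10.8 in CEL LPS and from 8.79 to 10.6 in CEL NaCl.

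**Figure D1:**
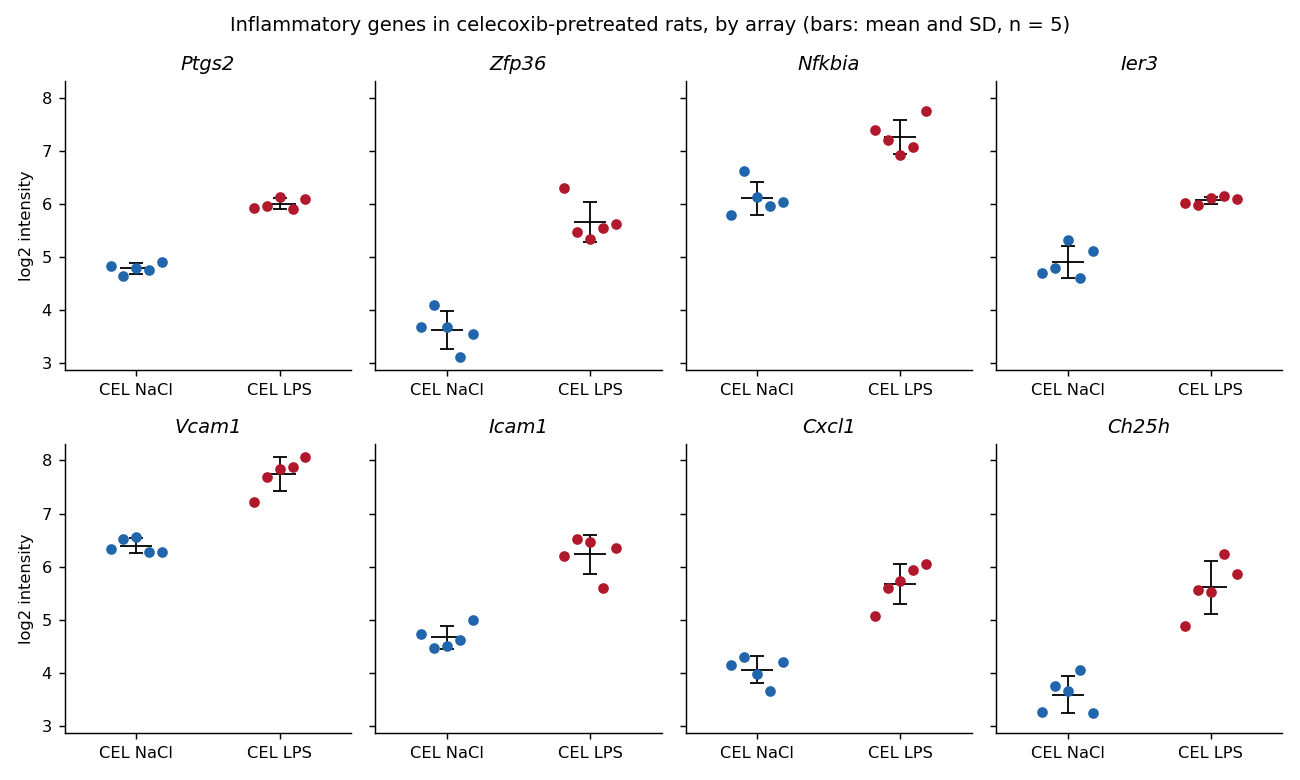
Log2 intensity of 8 inflammatory genes in the 5 CEL NaCl arrays (blue) and the 5 CEL LPS arrays (red), 1 point per array in order of array number, with the mean and SD as bars. In each of the 8 genes all CEL LPS arrays lay above all CEL NaCl arrays, and Ptgs2 was narrow in both groups (SD 0.10 and 0.10).

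The plot of 8 inflammatory genes by array shows the NF-kB feedback genes beside Ptgs2. Zfp36, whose product tristetraprolin binds and destabilizes cytokine mRNA, was 6.30, 5.48, 5.34, 5.54 and 5.62 in CEL LPS and 3.69, 4.10, 3.67, 3.12 and 3.54 in CEL NaCl. All CEL LPS arrays were above all CEL NaCl arrays, array 21 the highest of them, and the difference was 2.03 (SE 0.38, 4.09-fold, adjusted p = 0.0835). Ier3, an immediate early stress gene, read 6.03, 5.99, 6.11, 6.15 and 6.09 after LPS and 4.70, 4.80, 5.32, 4.60 and 5.11 after saline. The 5 CEL LPS arrays lay close together, above the more spread CEL NaCl arrays, and the difference was 1.17 (SE 0.23, 2.25-fold, adjusted p = 0.0835). Nfkbia, which encodes the NF-kB inhibitor IkB-alpha, was 7.40, 7.21, 6.92, 7.06 and 7.75 against 5.78, 6.62, 6.13, 5.96 and 6.03. Its groups did not overlap either, with a difference of 1.16 (SE 0.30) that passed in neither fit (adjusted p = 0.417 over 35 arrays and 0.126 over 10).

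Among all 19 measured NF-kB targets and feedback genes, 14 differences were above 0, as were 44.7% of all 14557 genes, and the median was 0.23, against −0.03 over all genes. At an unadjusted p under 0.05, 6 were higher and 1 lower (2.71% and 3.3% of all genes), and 3 (Zfp36, Ier3 and Nfkbia) had groups that did not overlap, where 0.474% of all genes were higher without overlap. The caspase inhibitor gene Birc3 had a difference of 1.25 (SE 0.41), with 4 CEL LPS arrays at 5.40 to 6.05 and array 21 at 3.23, below every CEL NaCl array. Among the NF-kB subunit genes the difference was 0.69 for Nfkb2, 0.23 for Rela, 0.22 for Relb, 0.21 for Rel and 0.08 for Nfkb1. The deubiquitinase gene Cyld was the lower one, with a difference of −0.49.

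The adhesion molecules that endothelial cells use to capture leukocytes were next. Vcam1 was 7.21, 7.69, 7.85, 7.88 and 8.07 in CEL LPS and 6.34, 6.53, 6.56, 6.27 and 6.28 in CEL NaCl. Its lowest LPS array was array 21, still above every CEL NaCl array, and the difference was 1.34 (SE 0.26, 2.54-fold, adjusted p = 0.0835). Icam1, the ligand of leukocyte integrins, was 6.21, 6.52, 6.46, 5.60 and 6.35 against 4.74, 4.47, 4.51, 4.62 and 5.00. Here array 24, not array 21, was the lowest LPS array, and the difference was 1.56 (SE 0.30, 2.95-fold, adjusted p = 0.0835). Selp, the P-selectin gene, was 3.44, 4.53, 3.71, 5.03 and 5.38 against 2.36, 2.80, 2.72, 2.56 and 3.03 (difference 1.72, SE 0.44, adjusted p = 0.401), and over all arrays it was dimmer than the median cluster. In these 3 of the 8 measured adhesion genes the groups did not overlap, where 0.474% of all genes were higher without overlap. The list as a whole had 4 members above 0 and 4 below, with a median of 0.02 that changed sign without CEL NaCl array 27 (−0.04). Of the other 5, Cd34 had a difference of −0.85 (SE 0.25), and the rest lay between −0.35 and 0.14.

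Of 11 measured markers of the brain endothelium, 8 had differences below 0, as did 55.3% of all genes, and 3 above. At an unadjusted p under 0.05, 4 were lower (3.3% of all genes) and 0 higher, 0 were lower without overlap, and the median was −0.42 (−0.28 without CEL LPS array 24). Cldn5, the tight-junction gene of the blood-brain barrier, was 6.61, 6.20, 6.15, 4.90 and 5.04 in CEL LPS and 6.94, 6.82, 7.02, 6.46 and 6.95 in CEL NaCl. Arrays 24 and 25 were the low ones and array 21 overlapped with the saline arrays, and the difference was −1.06 (SE 0.46, adjusted p = 0.884). The efflux pump Abcb1a was 5.71 to 7.02 against 6.71 to 7.23 (difference −0.65, SE 0.23), the organic anion transporter Slco1a4 5.46 to 6.97 against 6.50 to 7.43 (−0.74, SE 0.39), the thyroid hormone transporter Slco1c1 6.41 to 6.90 against 6.76 to 7.57 (−0.56, SE 0.23) and the receptor kinase Tie1 3.75 to 4.92 against 4.60 to 5.21 (−0.51, SE 0.22). The junction genes Cdh5 and Esam had differences of 0.04 and 0.47. The mean deviation of the whole list ran from −0.38 to 0.02 in CEL LPS and from −0.02 to 0.50 in CEL NaCl, so the groups met, and none of its genes passed the adjustment. A further transporter of the barrier, Abcg2, came up among the lower genes with the smallest p, at 4.76, 3.29, 4.82, 3.57 and 4.23 against 5.36, 5.22, 5.13, 5.23 and 5.23 (−1.10, SE 0.31, adjusted p = 0.633).

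Of 23 measured cytokines and chemokines, 20 had differences above 0 (44.7% of all genes), with a median of 0.25, and 6 were higher and 0 lower at an unadjusted p under 0.05 (2.71% and 3.3% of all genes). The chemokines had the larger differences. Cxcl1, which attracts neutrophils, was 5.08, 5.59, 5.72, 5.94 and 6.06 in CEL LPS and 4.14, 4.30, 3.99, 3.65 and 4.20 in CEL NaCl, without overlap (difference 1.62, SE 0.44, 3.08-fold, adjusted p = 0.46 over 35 arrays and 0.0219 over 10). Ccl2, which attracts monocytes, was 4.19, 5.30, 5.57, 7.53 and 6.70 against 3.26, 3.56, 3.39, 3.69 and 3.38. The saline arrays stood close together and the LPS arrays were spread over a wide range, lowest in array 21 and highest in array 24, with a difference of 2.40 (SE 0.71, adjusted p = 0.676). Ccl7, Ccl3 and Cxcl16 differed by 1.33 (SE 0.47), 1.14 (SE 0.28) and 1.06 (SE 0.32), each without overlap. Of the 23 genes, 9 were brighter than the median cluster over all arrays, and Ccl3 was not among them. In all, 5 of the 23 genes were higher without overlap, as were 0.474% of all genes. The classical pyrogenic cytokines were dim: Il1b was 2.53 to 4.22 in CEL LPS and 2.44 to 3.83 in CEL NaCl, Il6 3.16 to 4.12 and 2.88 to 4.09, and Tnf 3.89 to 4.60 and 3.12 to 4.40, all 3 with overlapping groups and an adjusted p of 0.887 to 0.933. Among 16 cytokine receptors the median was 0.19 and Osmr, the oncostatin M receptor, differed by 1.39 (SE 0.55), from 3.44 in array 21 to 6.86 in array 24 against 3.24 to 4.43.

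The genes induced by interferon formed the list with the highest median difference. All 29 measured interferon response genes had a difference above 0, where 44.7% of all genes did, with a median of 0.87 (0.56 without CEL LPS array 24 and 1.04 without CEL LPS array 21). At an unadjusted p under 0.05, 14 were higher and 0 lower (2.71% and 3.3% of all genes). In 11 of them the difference was 1 or more, which 0.275% of all genes reached, but 6 had groups that did not overlap (Cxcl10, Ifit3, Gbp5, Oas1b, Irgm and Irf7), as did 0.474% of all genes in this direction, and 0 passed the adjustment. The chemokine Cxcl10, which attracts T cells, was 4.71, 8.61, 7.76, 9.02 and 9.28 in CEL LPS and 4.18, 4.06, 3.86, 4.70 and 4.12 in CEL NaCl. In 4 of the LPS arrays it stood far above the saline arrays and in array 21 only just above them, and the difference was 3.69 (SE 0.86, 12.9-fold, adjusted p = 0.332). The antiviral gene Ifit3 was 3.77, 7.16, 6.17, 7.63 and 7.09 against 3.00, 3.26, 3.04, 2.35 and 3.06 (difference 3.42, SE 0.81, adjusted p = 0.344). Gbp5, a guanylate-binding protein that promotes inflammasome assembly, was 3.82, 7.33, 6.57, 7.95 and 6.90 against 2.86, 3.35, 3.30, 3.16 and 2.81 (difference 3.42, SE 0.74, adjusted p = 0.201). Cxcl11, another T-cell chemokine, had the largest difference of the 14557 genes, 4.37 (SE 1.16). It was 2.09, 7.80, 6.85, 9.37 and 8.59 against 2.40, 2.39, 2.71, 3.05 and 2.32, so that array 21 lay below all saline arrays.

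**Figure D2:**
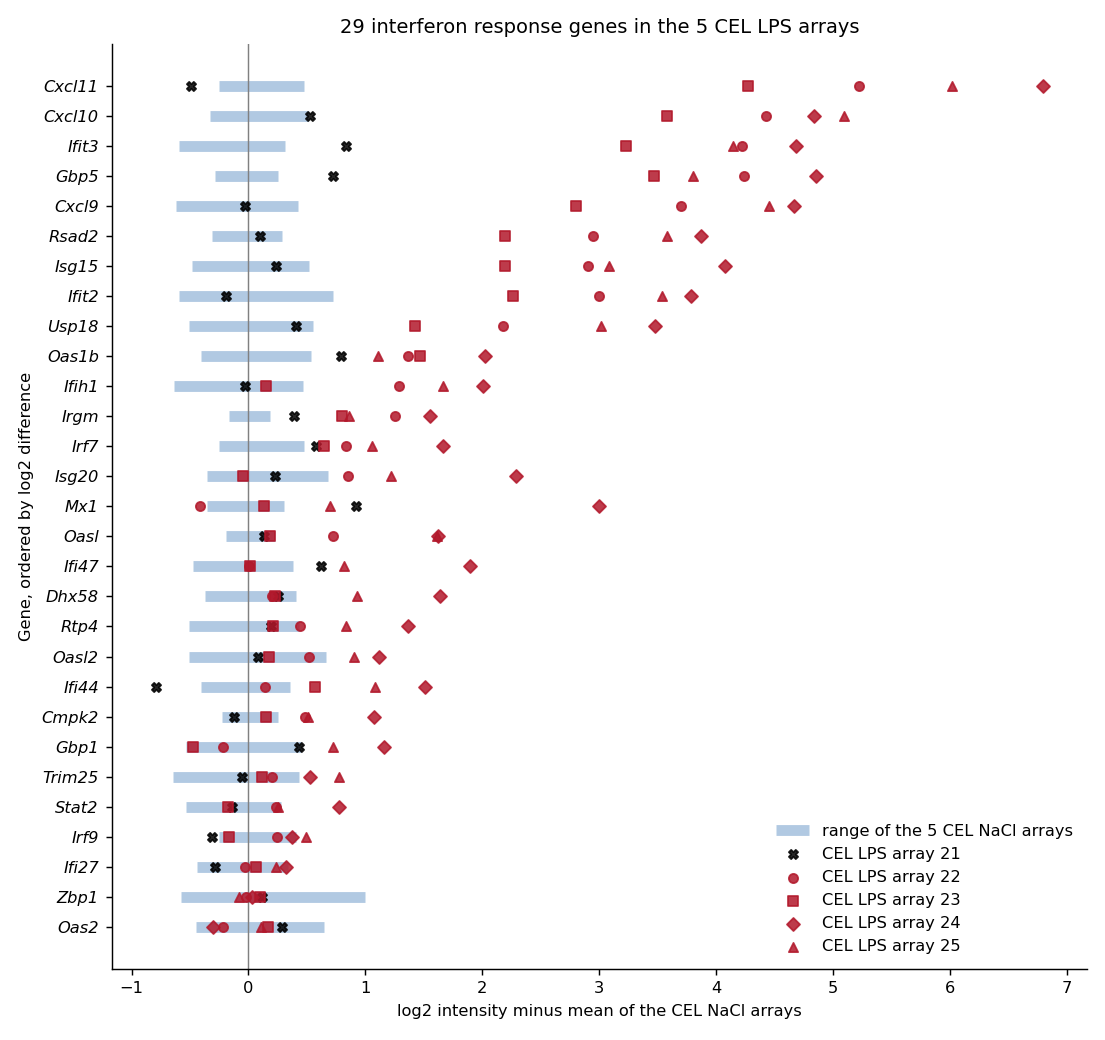
Log2 intensity of 29 interferon response genes in each CEL LPS array, as the difference from the mean of the 5 CEL NaCl arrays, whose range is the blue bar. In the upper genes arrays 22 to 25 lay far to the right of the saline range while array 21 (black crosses) lay in it or near it, and Oas2 (difference 0.01) did not separate in any array.

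The plot of interferon genes by array shows that array 21 stood apart from the other LPS arrays in this group. The mean deviation of the 29 genes from their mean over the 10 arrays was −0.49 in array 21, 0.73 in array 22, 0.35 in array 23, 1.63 in array 24 and 1.14 in array 25, and −0.81 to −0.55 in the saline arrays. Isg15, Rsad2, Ifit2, Usp18 and Cxcl9, with differences of 2.50, 2.54, 2.48, 2.10 and 3.12, were all within the saline range in array 21. The same array had the highest values of the group for Zfp36 (6.30) and for the immediate early gene Egr1 (7.86 against 5.75 to 6.70 in the other LPS arrays), and its Ptgs2, Nfkbia and Ier3 lay among those of the other LPS arrays. In array 24 the order was turned round, with the highest interferon level, Ccl2 and Osmr, and the lowest Icam1, Egr1 and Cldn5 of the LPS arrays. Without array 21, Cxcl10, Gbp5 and Ifit3 differed by 4.48, 4.09 and 4.07, with adjusted p-values of 0.000179, 0.000179 and 0.000247 in the fit over the 9 remaining arrays, and of 0.0527, 0.0494 and 0.0737 in the larger fit. The fit over 9 arrays was added after the values were seen. Array 21 was the lowest CEL LPS array for each of these genes, so the p-values obtained without it are not a test of their rise. All arrays were kept in their labelled groups.

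Antigen presentation genes, many of which are also induced by interferon, had 18 of 21 differences above 0 (44.7% of all genes) and a median of 0.25. The immunoproteasome subunit Psmb9 (4.82 to 5.50 against 4.21 to 4.59) and the peptide transporter Tap1 (4.28 to 4.85 against 3.63 to 4.21) had groups that did not overlap, where 0.474% of all genes were higher without overlap, with differences of 0.54 (SE 0.17) and 0.67 (SE 0.31). Of 21 genes of LPS sensing the median was 0.05, and 2 members, Casp1 and Myd88, were higher without overlap, against the same 0.474% of all genes. Casp1, the protease that activates interleukin-1, was 5.09, 4.62, 4.61, 5.55 and 4.86 against 3.89, 4.32, 3.67, 3.79 and 4.22 (difference 0.97, SE 0.22, adjusted p = 0.27), and the adaptor Myd88 differed by 0.32. The receptor Tlr4 itself differed by −0.25 and its co-receptor Cd14 by 0.29. Of 15 STAT3 and acute phase genes 14 had differences above 0 (44.7% of all genes), with a median of 0.25. The lipocalin Lcn2 led with 1.34 (SE 0.51), from 3.75 in array 21 to 6.29 in array 24 against 3.27 to 4.18.

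Ch25h, which hydroxylates cholesterol to an antiviral oxysterol, was listed with the cholesterol genes and stood apart from them. It was 4.88, 5.56, 5.52, 6.23 and 5.86 in CEL LPS and 3.26, 3.75, 3.65, 4.05 and 3.24 in CEL NaCl, without overlap, a difference of 2.02 (SE 0.41, 4.06-fold, adjusted p = 0.106 over 35 arrays and 0.0219 over 10). Of the other 11 measured cholesterol genes, 10 had differences below 0 (55.3% of all genes), between −0.03 and −0.27, and Abca1, the sterol exporter, had 0.35. Depp1, a gene induced by FOXO factors, was among those with the smallest p, at 6.00, 6.47, 6.10, 4.86 and 5.65 against 4.45, 4.23, 3.98, 3.69 and 4.11 (difference 1.73, SE 0.41, adjusted p = 0.344).

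Immediate early genes, which neurons and other cells transcribe within minutes of stimulation, had 20 of 27 differences above 0 (44.7% of all genes) and a median of 0.16, with 5 higher and 1 lower at an unadjusted p under 0.05 (2.71% and 3.3% of all genes). Atf3, a stress-induced transcription factor gene, was 5.11, 5.67, 5.48, 5.20 and 5.32 against 4.73, 4.05, 4.16, 4.06 and 4.40 (difference 1.07, SE 0.22, adjusted p = 0.106). It was the only one of the 27 without overlap, where 0.474% of all genes were higher without overlap. Egr1, Junb and Ier2 differed by 0.83 (SE 0.31), 0.82 (SE 0.29) and 0.64 (SE 0.20), and Egr1 by 0.54 without CEL LPS array 21. Fos, the usual marker of neuronal activation, was 4.27 to 5.16 in CEL LPS and 4.09 to 5.04 in CEL NaCl (difference 0.13, SE 0.30, adjusted p = 0.969).

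Genes of the hormonal response to inflammation are set out next. Crh, which encodes corticotropin-releasing hormone, was 4.55, 4.27, 4.81, 4.16 and 4.38 in CEL LPS and 4.43, 4.46, 4.40, 4.79 and 3.67 in CEL NaCl. The groups overlapped almost fully, with a difference of 0.08 (−0.09 without CEL NaCl array 30) and a 95% interval from −0.42 to 0.58. The 12 measured genes of the hypothalamus-pituitary-adrenal axis had a median of 0.04, and 0 were at an unadjusted p under 0.05, where 2.71% of all genes were higher and 3.3% lower. Of 19 glucocorticoid-induced genes 14 had differences above 0 (44.7% of all genes), with a median of 0.19 and 0 at an unadjusted p under 0.05. Fkbp5, a co-chaperone induced through the glucocorticoid receptor, was 6.25, 6.37, 6.38, 7.03 and 6.58 against 6.08, 6.00, 6.51, 6.28 and 5.92 (difference 0.36, SE 0.30, and 0.24 without CEL LPS array 24), and the metallothionein Mt2A was 5.63 to 7.04 against 5.06 to 5.88 (0.86, SE 0.58). The receptor gene Nr3c1 differed by −0.09. Hypothalamic neuropeptides had a median of 0.08, with differences of 0.49 (SE 0.20) for Gal, encoding galanin, and −0.78 (SE 0.41, and −0.48 without CEL NaCl array 26) for Vip, both with overlap. Clock, amino acid transporter, glutamate and monoamine genes had medians of −0.10, −0.09, −0.15 and −0.17, each of which depended on 1 array. Without CEL NaCl array 27 the first 3 were −0.05, −0.01 and −0.08, and without CEL LPS array 21 the monoamine median was −0.04.

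**Figure D3:**
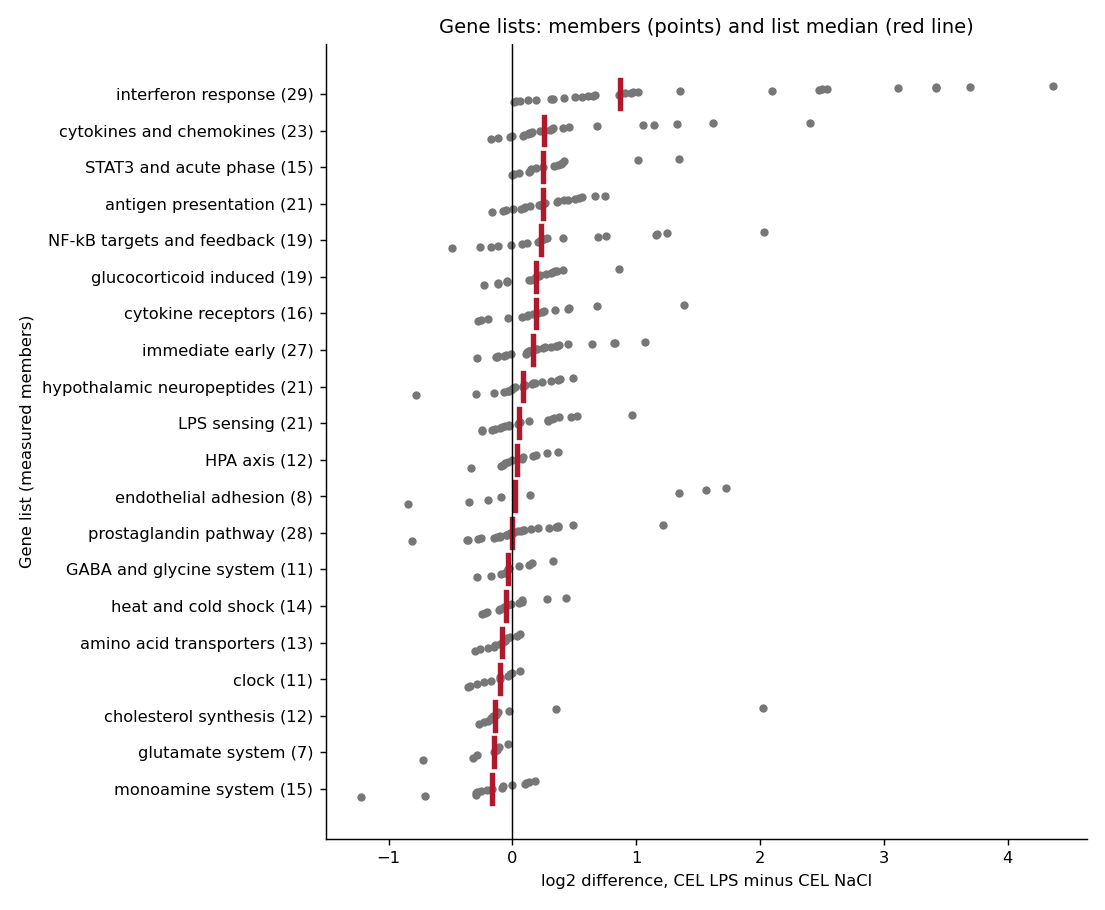
Log2 difference, CEL LPS minus CEL NaCl, of each measured member (points) of 20 gene lists, with the list median as a red line and the number of measured members in brackets. The interferon response list had the highest median (0.87), and in the endothelial adhesion and prostaglandin lists single members lay far from a median near 0 (0.02 and −0.01).

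With 1 CEL array left out the sign of several medians near 0 changed: prostaglandin genes to 0.03 without array 28, LPS sensing to −0.01 without array 29, the hypothalamus-pituitary-adrenal axis to −0.01 without array 27 and neuropeptides to −0.01 without array 23.

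The lower genes were smaller in difference and of mixed function. The plot of gene lists shows few points at −1 or less, and over all genes 6 reached it (0.0412%). Pgs1, an enzyme of mitochondrial cardiolipin synthesis, was 5.46, 5.45, 5.69, 5.71 and 6.03 in CEL LPS and 6.13, 6.58, 6.21, 6.20 and 6.39 in CEL NaCl (difference −0.63, SE 0.15, adjusted p = 0.308). Msra, which repairs oxidized methionine, was 5.72, 5.81, 5.66, 5.63 and 5.76 against 6.44, 6.59, 6.41, 6.39 and 6.32 (−0.71, SE 0.17, adjusted p = 0.344). Both had groups that did not overlap, as did 0.708% of all genes in this direction. Vhl and Egln3, whose products mark hypoxia-inducible factor for degradation, differed by −0.49 (SE 0.13) and −0.71 (SE 0.20), and the iron exporter gene Slc40a1 by −1.07 (SE 0.28), with an adjusted p of 0.401, 0.633 and 0.453. The other 9 of the 15 lower genes with the smallest p, apart from Abcg2, were Sec14l2, Sfxn3, Degs2, Bmp3, Mpv17l2, C16h8orf48, Rasl12, Traf7 and Ddah1, with differences between −0.95 and −0.47.

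Composition of the dissected tissue varied between the CEL arrays. Oligodendrocyte markers were all 5 below 0 in difference, as were 55.3% of all genes (median −0.21, and −0.11 without array 26). Their mean deviation was 0.48 and 0.40 in CEL NaCl arrays 26 and 27 against −0.22 to 0.13 in the other 8. Slc17a7, a glutamate transporter gene of cortex and thalamus, was 7.37 in array 26 and 3.75 to 5.51 in the rest, and the thalamic marker Slitrk6 was 6.26 and 6.51 in arrays 26 and 27 and 4.44 to 5.76 in the rest. The 5 neuron markers had a median of −0.14 (−0.09 without array 26), the 5 astrocyte markers −0.08 (−0.04 without array 21) and the 10 microglia markers 0.06 (−0.05 without array 29). Meningeal markers had 10 of 10 differences above 0, as did 44.7% of all genes (median 0.37, and 0.57 without array 28). But their level ran from −0.46 to 0.78 in CEL LPS and from −0.65 to 0.64 in CEL NaCl. Of 10 neutrophil and monocyte markers 0 were brighter than the median cluster, with list levels of −0.04 to 0.23 in CEL LPS and −0.17 to 0.06 in CEL NaCl. S100a8 was the 1 member without overlap, at 2.30 to 3.29 against 1.80 to 2.26, where 0.474% of all genes were higher without overlap. The part of these markers in the differences above was not tested. With each of the 10 arrays left out in turn, the difference stayed between 1.18 and 1.25 for Ptgs2, 1.87 and 2.15 for Zfp36, 1.26 and 1.47 for Vcam1 and 1.49 and 1.72 for Icam1. Arrays 26 and 27 were never left out together, so these ranges do not show the part of tissue composition.

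Whether the response to LPS differed from that after the other pretreatments was tested as a difference of differences. Against saline, SC-560 and indometacin pretreatment 0 of 36685 clusters passed in each of the 3 tests, with 1570 (4.28%), 1807 (4.93%) and 2461 (6.71%) at an unadjusted p under 0.05. In each of the 4 pretreatments Ptgs2 was higher after LPS: by 1.22 (SE 0.29) after celecoxib, 1.17 (SE 0.35) after saline, 1.11 (SE 0.29) after SC-560 and 0.72 (SE 0.34) after indometacin. The celecoxib difference minus the saline one was 0.05 with a 95% interval from −0.89 to 0.98, so that a difference of either sign up to almost a doubling was compatible with these arrays. Cxcl10 differed by 3.69, 3.81 (SE 1.04), 3.41 (SE 0.86) and 0.95 (SE 1.00) in the same order. Celecoxib minus indometacin was 2.74 for Cxcl10, with an interval from 0.05 to 5.44 before adjustment. Cxcl10 was among the higher genes with the smallest p for celecoxib, so this interval is not a test of a difference.

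**Figure D4:**
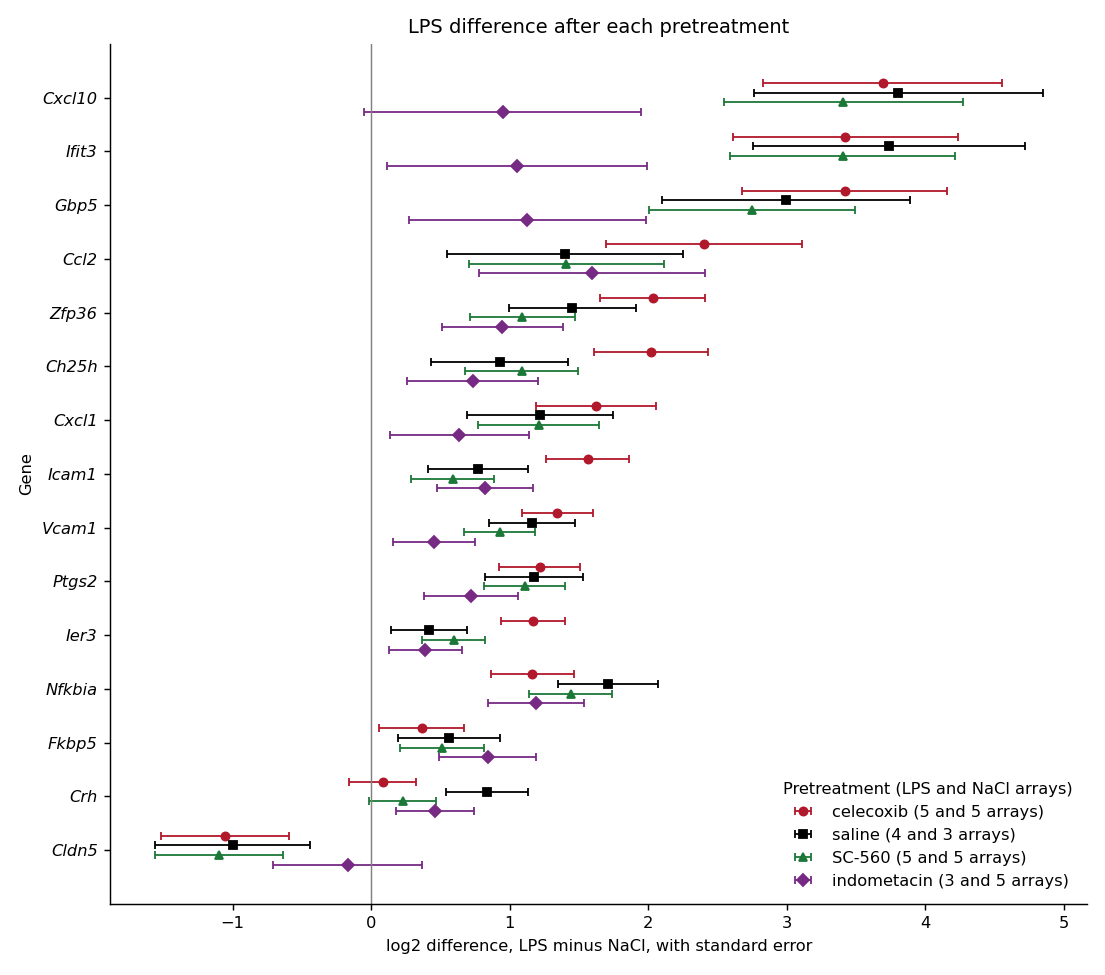
Log2 difference between LPS and NaCl arrays, with its standard error, for 15 genes after celecoxib, saline, SC-560 or indometacin pretreatment. The celecoxib point was the highest of the 4 for Gbp5, Ccl2, Zfp36, Ch25h, Cxcl1, Icam1, Vcam1, Ptgs2 and Ier3 and the lowest for Nfkbia, Fkbp5 and Crh (0.08), and it lay between the others for Cxcl10, Ifit3 and Cldn5. Gbp5, Zfp36, Ch25h, Icam1, Vcam1, Ptgs2 and Ier3 were among the 15 higher genes with the smallest p for celecoxib. Ccl2 and Cxcl1 were named for a small p within their list. That choice favours a high celecoxib point.

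The plot of the 4 pretreatments shows for which genes the difference after celecoxib was at an end of the order, and 4 of these are given first. They were picked for that place in the order, and Ier3, Ch25h and Icam1 also for a small p after celecoxib. Their intervals are therefore not a test of a difference between pretreatments. Ier3 differed by 1.17 after celecoxib and by 0.42 (SE 0.28), 0.60 (SE 0.23) and 0.39 (SE 0.26) after saline, SC-560 and indometacin, and celecoxib minus saline was 0.75 (95% interval 0.02 to 1.48). Ch25h differed by 2.02 and by 0.93 (SE 0.49), 1.08 (SE 0.41) and 0.73 (SE 0.47), with 1.09 (−0.21 to 2.40) for celecoxib minus saline. Icam1 differed by 1.56 and by 0.77 (SE 0.36), 0.59 (SE 0.30) and 0.82 (SE 0.35), with 0.79 (−0.17 to 1.75). Crh differed by 0.08 and by 0.83 (SE 0.29), 0.23 (SE 0.24) and 0.46 (SE 0.28), with −0.75 (−1.53 to 0.03). None of these 4 passed the adjustment over all clusters. Fkbp5 differed by 0.36 after celecoxib, 0.56 (SE 0.37) after saline, 0.51 (SE 0.30) after SC-560 and 0.84 (SE 0.35) after indometacin. Cldn5 differed by −1.06 after celecoxib, −1.10 (SE 0.46) after SC-560 and −0.17 (SE 0.54) after indometacin, and after saline pretreatment its means were 5.77 ± 0.73 with LPS (SD, n = 4) and 6.77 ± 0.07 with NaCl (SD, n = 3). The arrays were split here by the number in their titles into a set from 1 to 40 and a set from 41 to 56, which the labels do not name. All INDOM arrays lie in the set from 41 to 56 and all CEL arrays in the set from 1 to 40, while the saline-pretreated groups have arrays in both. An additive effect of the set cancels in each difference between LPS and NaCl after celecoxib or indometacin. The set as a term thus leaves the estimates of celecoxib minus indometacin unchanged, and the 0 clusters that passed with it are no check on the set. Whether the response to LPS itself varied between the sets was not tested.

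Celecoxib and SC-560 are related in structure, both being diaryl pyrazoles with a trifluoromethyl group, of which celecoxib carries a sulfonamide and SC-560 chloro and methoxy groups instead. Their doses are not stated either, so a comparison at matched dose was not possible, while route, days and sampling time were the same. Celecoxib minus SC-560 was 0.11 (95% interval −0.74 to 0.95) for Ptgs2, 0.02 (−2.32 to 2.36) for Ifit3, 0.28 (−2.21 to 2.78) for Cxcl10, 0.42 (−0.32 to 1.15) for Vcam1, 0.94 (−0.15 to 2.03) for Zfp36 and 0.97 (0.11 to 1.84) for Icam1. The last interval lies above 0 before adjustment only, and across all clusters the smallest adjusted p of this comparison was 0.986. All of these genes were among the 15 higher genes with the smallest p for celecoxib, so their intervals are not a test of a difference. The intervals for the interferon genes are wide enough to hold differences of 2 log2 units in either direction.

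List medians are set side by side without a test. For interferon response genes they were 0.87 after celecoxib, 0.70 after saline, 0.83 after SC-560 and 0.33 after indometacin. For NF-kB targets they were 0.23, 0.19, 0.20 and 0.19. For brain endothelium markers they were −0.42, −0.47, −0.39 and −0.10, and for glucocorticoid-induced genes 0.19, 0.60, 0.53 and 0.79, the celecoxib value being the lowest of the 4.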

How the data were processed

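Medial hypothalamus RNA was hybridized sample by sample to rat gene array strips of Affymetrix. The authors deposited 1 linear intensity per transcript cluster and array. The labels credit them to Affymetrix Expression Console and RMA, with no version. For the other groups of the series the methods describe RMA, quantile normalization and median polish on a log2 scale in another program, Partek Genomics Suite. The log2 of the deposited intensity was taken here and nothing else was done to it. Of 36685 clusters 14824 carry 1 symbol, which stand for 14557 genes, each represented by its brightest cluster over 56 arrays, 829 carry several and 21032 none. No depth can be given for arrays, and their number limits the precision. No other columns were left out.

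Groups were fitted as means over the 35 drug arrays in R 4.3.3 with limma 3.58.1, and p-values were adjusted by Benjamini and Hochberg over all clusters with a threshold of 0.05. The unmoderated analysis of variance is the one nearest to the methods. Gene lists and comparisons were chosen with earlier results of these data known. Named genes are the 15 with the smallest p in each direction (none passed), up to 4 genes per pathway list, up to 6 per difference of effects and 19 fixed genes, of which Ptges and Socs3 have no cluster of their own. Further list members are named with values to describe their list, and the genes of the promoter search were chosen after their values were seen. The script was tested on simulated data. Plots were made in Python 3.11.15 (matplotlib 3.10.9). Alternatives were the unmoderated analysis of variance, a variance trend, only the groups compared, all 56 arrays, no arrays with a second run number, bright clusters only, a second quantile normalization, array weights, the array set as a term, each array left out in turn and, for lists, the mean of all clusters of a gene.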

Additional observations from a re-analysis of the deposited data

Results flagged for a closer look

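A single array stood far from the other 4 of its group, by the size of its gap relative to the whole range of the group, in 19 of the 304 group values examined (152 genes and lists in 2 groups). Chance flags about 1 in 20 groups. In CEL LPS, array 24 was the high one for Psmb9 (relative gap 0.838) and for the LPS sensing list (0.736) and the low one for Per1 (0.772). Array 21 was the low one for Utp6 (0.911) and the monoamine list (0.783) and the high one for Per2 (0.731) and the oligodendrocyte markers (0.78). Array 23 was high for Slc40a1 (0.759), array 22 for the choroid plexus markers (0.85), and array 25 low for Bmal1 (0.91). In CEL NaCl, array 27 was high for Sec14l2 (0.78), Per1 (0.719), Msmo1 (0.876) and the cholesterol list (0.749) and low for Thbd (0.909). Array 29 was low for Ifit3 (0.722) and Timp1 (0.84) and high for Il1b (0.864), the reading that makes the saline range of Il1b reach 3.83, and array 26 was low for Tlr2 (0.905). The low interferon level of array 21 was not among these, since the other 4 LPS arrays were themselves widely spread.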

How the results depend on the processing

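The count of 0 clusters for LPS against NaCl in celecoxib-pretreated rats held in 5 of 9 alternative settings. It was 9 with only the groups compared in the fit, 6 with only clusters above the median intensity, 2 with array weights and 1 with the array set as a term, and 14 with only the groups compared and bright clusters, a combination added after the values were seen. Of the named genes 0 passed, but 7 with only the groups compared, 4 with bright clusters and 10 with both. Leaving out 1 array gave 0 to 23 clusters and 0 to 11 named genes over both fits (3 named genes without CEL NaCl array 28 in the fit of the groups compared), the highest without CEL LPS array 21 in the fit of the groups compared, which was also added after the values were seen. The difference from the indometacin effect gave 2 clusters with all 56 arrays, 1 without the arrays with a second run number and 0 to 5 with 1 array left out, the 5 without INDOM LPS array 51. The differences from the saline and SC-560 effects gave 0 clusters in all 9 alternatives and with each array left out. No named gene that was called in any alternative changed sign, and no named gene moved by more than its within-group SD. The smaller fits have fewer residual degrees of freedom, and the cause of their extra calls was not tested. No paired analysis was possible because each array number occurs once and pairs no arrays across groups. The intensity of the dim cytokines, near the median of all clusters or below it, limits what their values can show.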
